A study of Mus musculus with 4 samples.

Results

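Collagen genes were followed in mouse embryoid bodies, with and without the chromatin factor Trim33. Embryoid bodies are clumps of stem cells that, kept in suspension, form tissues of all germ layers. The genes were taken by symbol: every gene named Col, a number, the letter a and a number, except the basement membrane pair Col4a1 and Col4a2. This gave 42 of the 24015 genes in the count files. Of these, 9 encode fibrillar chains of types I, II, III, V and XI, and 33 encode chains of other types, among which Col24a1 and Col27a1 were counted although their proteins are also of a fibrillar kind. The question was how their transcripts compared between Control and Trim33-deficient bodies.

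The libraries were 2 Control and 2 Trim33-deficient ones, which the labels describe as independent pairs, and same-numbered libraries are taken as pairs here. Per the labels, the stem cell lines came from embryos homozygous for a Trim33-flox allele and carrying the UbcCreERT2 transgene, whose ubiquitin C promoter drives a tamoxifen-dependent Cre recombinase in a broad range of cells rather than in one cell type. The strain is given as outbred. The lines were grown without feeder cells in LIF and 2i medium to passages 8 to 10, and the bodies formed in low-attachment dishes. 4OH-Tamoxifen was applied on day 4 for the deletion, and RNA was taken on day 7. The genotype of the Control libraries is given as wild type, and the labels do not say whether Control bodies received tamoxifen or carried the floxed allele and the transgene, so an effect of either cannot be told apart from that of Trim33 loss.

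Collagens are proteins of the extracellular matrix in which 3 chains wind into a triple helix. Fibrillar chains, such as those of type I and III, align into the banded fibrils of connective tissue, type V chains help to start these fibrils, and type II and XI chains form the thinner fibrils of cartilage and of several early embryonic tissues. The other types form networks, beaded filaments and anchoring fibrils, coat fibrils, or span the cell membrane. TGF-beta signalling through SMAD proteins is a well known activator of fibrillar collagen genes in mesenchymal cells, and Trim33 encodes a ubiquitin ligase of chromatin that partners with SMAD proteins.

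The libraries held 10422738 to 13808837 counts in genes, and 14259 genes had enough counts to be tested. Control 1 stood apart: over genes its correlation with each other library was 0.932 to 0.952, while those 3 libraries correlated at 0.967 to 0.978. Trim33 itself, the targeted gene, was at 93.0 CPM (counts scaled to a common library size) in Control 1, 109 in Control 2, 43.8 in Trim33-deficient 1 and 42.3 in Trim33-deficient 2. Its level was thus lower in both Trim33-deficient libraries than in either Control library, but not absent, and its log2 fold change of -1.23 (SE 0.134) had an adjusted p of 0.219 in edgeR's quasi-likelihood test. In DESeq2 the adjusted p of Trim33 was 1.8e-06, and 0.00125 with the replicate number as a block. The edgeR test thus did not call the targeted gene itself, so a gene that it does not call cannot be taken as unchanged. The scaling was TMM, and every fold change is Trim33-deficient over Control. The libraries carried markers of many embryonic lineages, as embryoid bodies do. Late bone markers were absent or nearly so, with no count of Ibsp in any library and 1 count of Bglap in Control 1 alone, while the 5 bone markers summed to 36.1 to 71.9 CPM, led by Alpl and Runx2.

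None of the collagen genes passed the test between the groups. Of the 42 genes, 34 had enough counts to be tested, namely all 9 fibrillar ones and 25 of the 33 others. At an adjusted p under 0.05, edgeR called 0 of the 34, against 0.014% of all genes tested, which is 2 genes, both lower. The lowest adjusted p among the collagens was 0.577, for Col7a1, and this gene was also the 1 collagen with an unadjusted p under 0.05, where 7.84% of all genes stood. DESeq2 called 0 of the 34, with 2 at an unadjusted p under 0.05, while it called 0.989% of all genes and had 6.76% under that unadjusted p. The limma voom test called 0 of the 34 and 0% of all genes, with 1 collagen at an unadjusted p under 0.05, against 7.74% of all genes. The fitted log2 fold changes lay above 0 for 24 collagens and below 0 for 10, against 49.8% of all genes above 0, with a median of 0.25 for the collagens and -0.0014 for all genes tested. Because whole bodies were sequenced, fewer cells of a type and less RNA per cell cannot be told apart in any of these values.

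Collagens differed more widely between replicates of the same group than did all genes tested. Control 2 and Control 1 differed by a median of 1.06 on the log2 scale over the 34 collagens and by 2.13 over the 9 fibrillar ones, against 0.24 over all genes tested. The 2 Trim33-deficient libraries differed by a median of 0.67 over the collagens and 1.24 over the fibrillar ones, against 0.21 over all genes. The median size of the fold change between the groups, 0.42 on the log2 scale, was smaller than either of these collagen medians. It was above the 0.20 of all genes tested, for which the size between groups was likewise below both replicate medians. The measures are unlike, since a fold change averages 2 libraries per group and a replicate difference sets 1 library against 1, which tends to be larger. Control 1 held the lowest level of 23 of the 34 collagens, or 67.6%, where 31.3% of all genes had their lowest level in that library. For 11 collagens the libraries stood in the order Control 1, Trim33-deficient 1, Control 2, Trim33-deficient 2 from low to high. That is 32.4% of the collagens tested, and the same order was found in 8.66% of all genes.

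The fibrillar genes with the highest mean levels were Col3a1, Col1a1 and Col5a1, all of which varied widely between libraries. Col3a1, the single chain of type III collagen, stood at 108 CPM in Control 1, 1667 in Control 2, 862 in Trim33-deficient 1 and 3478 in Trim33-deficient 2. The groups overlapped, since Trim33-deficient 1 lay below Control 2, while within each pair the Trim33-deficient library was the higher one, by 7.98 fold in pair 1 and 2.09 fold in pair 2. Its log2 fold change was 1.29 (SE 1.34), with an adjusted p of 0.804 in edgeR. Control 2 was 15.4 times as high as Control 1, a replicate difference larger in size than that of 99.9% of all genes tested.

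Col1a1, the more abundant chain of type I collagen, stood at 194 CPM in Control 1, 1924 in Control 2, 624 in Trim33-deficient 1 and 2819 in Trim33-deficient 2. The order of the libraries was that of Col3a1, with overlapping groups and a higher value on the Trim33-deficient side of both pairs, by 3.21 fold and 1.47 fold. The log2 fold change was 0.70 (SE 1.21), with an adjusted p of 0.874 in edgeR. Its partner Col1a2, the other chain of the type I molecule, was at 132, 609, 204 and 539 CPM in Control 1, Control 2, Trim33-deficient 1 and Trim33-deficient 2. Here the pairs split, because Trim33-deficient 2 lay below Control 2, and the group means were 371 ± 337 CPM in Control and 371 ± 237 in Trim33-deficient bodies (SD, n = 2 each). The log2 fold change of Col1a2 was 0.0027 (SE 0.829), and it lay at -0.023 with upper-quartile scaling.

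Col5a1 and Col5a2 encode the chains of type V collagen, which sits inside type I fibrils and sets their number and width. Col5a1 stood at 169 CPM in Control 1, 952 in Control 2, 617 in Trim33-deficient 1 and 1458 in Trim33-deficient 2. Again both Trim33-deficient libraries exceeded the Control library of their pair and the groups overlapped, with a log2 fold change of 0.89 (SE 0.884) and an adjusted p of 0.796 in edgeR. Col5a2 stood at 97.0, 425, 188 and 549 CPM in the same order of libraries. Its replicates were 4.38 fold apart in Control and 2.92 fold apart in Trim33-deficient bodies, against 1.94 and 1.29 fold between the groups within pair 1 and pair 2. The log2 fold change was 0.50 (SE 0.839). Col3a1 and Col5a2 are neighbours on chromosome 1, tail to tail, in the GRCm38 annotation. The third type V gene, Col5a3, was low everywhere, at 2.16, 0.977, 1.15 and 1.54 CPM, with a log2 fold change of -0.24 (SE 0.574) and split pairs.

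**Figure D1:**
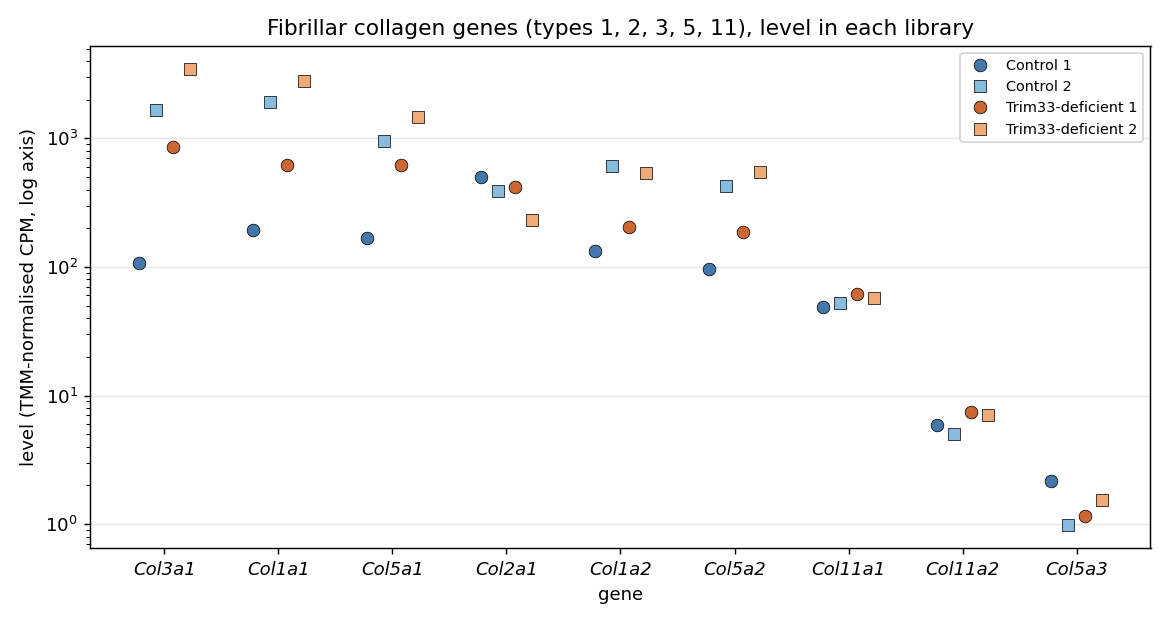
Level of each of the 9 fibrillar collagen genes in each library, in TMM-normalised CPM on a log axis, with 1 symbol per library. For Col1a1, Col3a1, Col5a1 and Col5a2 the libraries stand in the order Control 1, Trim33-deficient 1, Control 2, Trim33-deficient 2, so that the groups overlap.

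The promoters of 4 genes with a wide spread over the libraries are printed to show the sequence next to these values. The 4 are examples and were not picked by the size of the spread. Col1a1 and Col14a1, not printed, differed more between the Control libraries than Col1a2, Col5a1 and Col6a3. They are the 250 bases before the start of transcription in RefSeq, on build GRCm38.p6 (the counts were made on mm9), read on the strand of the gene from 5′ to 3′. Capitals mark 3 motifs searched on both strands: CCAAT, known as the box bound by NF-Y, TATAAA, the common TATA box, and CAGAC, printed as read or as its reverse complement, which holds the core of SMAD-binding elements. The windows are chr6:4505368-4505617 on the plus strand for Col1a2, chr1:45311288-45311537 on the plus strand for Col3a1, chr2:27886175-27886424 on the plus strand for Col5a1 and chr1:90843972-90844221 on the minus strand for Col6a3.
Col1a2: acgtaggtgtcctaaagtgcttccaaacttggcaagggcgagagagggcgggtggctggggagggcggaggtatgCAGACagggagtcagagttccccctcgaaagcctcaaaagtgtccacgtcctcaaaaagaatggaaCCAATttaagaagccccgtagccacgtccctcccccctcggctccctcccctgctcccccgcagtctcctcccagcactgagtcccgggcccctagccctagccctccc
Col3a1: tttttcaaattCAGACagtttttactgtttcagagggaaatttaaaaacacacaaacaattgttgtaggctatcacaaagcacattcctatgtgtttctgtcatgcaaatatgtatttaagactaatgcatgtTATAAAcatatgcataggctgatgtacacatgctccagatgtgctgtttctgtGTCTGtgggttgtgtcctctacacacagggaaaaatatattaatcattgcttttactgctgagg
Col5a1: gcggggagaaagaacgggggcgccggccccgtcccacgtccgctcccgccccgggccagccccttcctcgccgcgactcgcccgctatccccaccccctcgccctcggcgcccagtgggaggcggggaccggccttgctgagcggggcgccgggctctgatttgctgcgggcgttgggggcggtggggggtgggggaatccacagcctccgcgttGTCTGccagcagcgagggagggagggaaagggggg
Col6a3: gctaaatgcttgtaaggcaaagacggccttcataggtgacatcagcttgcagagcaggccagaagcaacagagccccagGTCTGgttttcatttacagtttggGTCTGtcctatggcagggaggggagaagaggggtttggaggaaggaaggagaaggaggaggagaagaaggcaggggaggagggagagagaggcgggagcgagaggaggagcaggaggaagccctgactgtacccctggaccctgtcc
CAGAC or its reverse complement stood in each of these 4 windows, and CCAAT in that of Col1a2 alone. Of the 42 collagen genes, 33 had an entry, with 36 promoters in all. CAGAC was in 16 of these 36, or 44.4%, against 42.2% of 32851 promoters of the same length. CCAAT was in 11 of 36, or 30.6%, against 33.8%, and TATAAA in 5 of 36, or 13.9%, against 12.4%. Over the 36 collagen promoters the shares were thus close to those among all promoters. Only 6 promoters were of fibrillar genes, with CAGAC in 4, CCAAT in 3 and TATAAA in 2, too few to compare. A match describes letters in a window, not a bound site.

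The cartilage-type fibrillar genes did not share the order seen for Col1a1, Col3a1, Col5a1 and Col5a2. Col2a1, the single chain of type II collagen, stood at 498 CPM in Control 1, 387 in Control 2, 416 in Trim33-deficient 1 and 232 in Trim33-deficient 2. Control 1, where Col1a1, Col1a2 and Col3a1 were lowest, was the library with the highest Col2a1. The Trim33-deficient library was the lower one in both pairs, by a log2 fold change of -0.45 (SE 0.316) with an adjusted p of 0.725 in edgeR. Of 5 cartilage markers, Acan, which encodes aggrecan, Matn1 and Comp did not pass the filter on low counts, while Hapln1, a link protein of cartilage matrix, and Sox9 did, at 14 to 72.7 and 23.9 to 46.6 CPM. The summed level of 5 cartilage markers was 46.5, 98.4, 116 and 101 CPM in Control 1, Control 2, Trim33-deficient 1 and Trim33-deficient 2.

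Both type XI genes were among the few collagens whose groups did not overlap. Col11a1 stood at 48.8 and 52.7 CPM in the Control libraries and at 61.6 and 57.3 in the Trim33-deficient ones. Its replicates lay within 1.08 fold of each other in both groups, and its log2 fold change was 0.23 (SE 0.124) with an adjusted p of 0.678 in edgeR. Col11a2 stood at 5.87 and 4.98 CPM in Control and at 7.43 and 7.00 CPM in the Trim33-deficient bodies, a log2 fold change of 0.41 (SE 0.278).

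Among the other types, type VI collagen, which forms beaded filaments around cells and between fibrils, followed the order of Col1a1 and Col3a1. Col6a3, which encodes its longest common chain, stood at 9.27 CPM in Control 1, 52.0 in Control 2, 51.9 in Trim33-deficient 1 and 140 in Trim33-deficient 2. The 2 middle libraries, from opposite groups, were level, and the Trim33-deficient library was 5.59 fold higher in pair 1 and 2.69 fold higher in pair 2. Its log2 fold change, 1.65 (SE 0.913), was the highest of the 34 collagens, with an adjusted p of 0.683 in edgeR. Col6a1 stood at 28.7, 67.6, 48.8 and 102 CPM in Control 1, Control 2, Trim33-deficient 1 and Trim33-deficient 2, with a log2 fold change of 0.64 (SE 0.538). Col6a2, its neighbour on the chromosome, stood at 14.4, 34.3, 27 and 42.3 CPM, with 0.51 (SE 0.473). All 3 genes were thus higher on the Trim33-deficient side of both pairs and overlapped between the groups. The 3 further type VI chains, Col6a4, Col6a5 and Col6a6, had at most 8 counts in any library.

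Collagens that coat fibrils rather than form them, with interrupted triple helices, included Col12a1 and Col14a1. Col12a1 stood at 12.7 CPM in Control 1, 30.6 in Control 2, 35.3 in Trim33-deficient 1 and 58.2 in Trim33-deficient 2. Its groups did not overlap, with a log2 fold change of 1.11 (SE 0.488) and an adjusted p of 0.660 in edgeR. Col14a1 stood at 1.55, 16.9, 12.3 and 26.6 CPM, so that Control 1 was 10.9 fold below its replicate and the groups overlapped. Its log2 fold change was 1.09 (SE 1.08). Col16a1, of the same family, stood at 14.4, 22.7, 14.4 and 35.6 CPM, with 0.43 (SE 0.500). The type IX genes Col9a1 and Col9a2, whose product lies on type II fibrils, were highest in Control 2: Col9a1 stood at 6.03, 26.5, 12.6 and 9.14 CPM, and Col9a2 at 25.9, 69.2, 28.2 and 35.6 CPM. Both had a log2 fold change of -0.57, with SEs of 0.717 and 0.487, and both split between the pairs. Col22a1, found at tissue junctions, was level at 12.2, 9.18, 11.2 and 13.8 CPM, with a log2 fold change of 0.22 (SE 0.271).

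Col7a1, the single chain of the anchoring fibrils that tie epithelia to the tissue below, had the smallest p of all the collagens. It stood at 5.87 CPM in Control 1, 4.59 in Control 2, 11.5 in Trim33-deficient 1 and 9.48 in Trim33-deficient 2. Both Trim33-deficient libraries lay above both Control libraries, and the pairs gave 1.95 and 2.07 fold. The log2 fold change was 1.0 (SE 0.289), with an unadjusted p of 0.0201 and an adjusted p of 0.577 in edgeR. In GRCm38 an exon of the microRNA gene Mir711 overlaps Col7a1 on the same strand. The summed level of 4 surface ectoderm markers, led by Krt8 and Trp63, was 541, 479, 478 and 552 CPM in Control 1, Control 2, Trim33-deficient 1 and Trim33-deficient 2, and its part in the Col7a1 values was not tested.

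The basement membrane collagens of the set overlapped between the groups. Col18a1, a heparan sulfate-bearing chain of basement membranes whose end fragment is endostatin, was the most abundant chain outside the fibrillar ones. It stood at 813 CPM in Control 1, 1282 in Control 2, 958 in Trim33-deficient 1 and 782 in Trim33-deficient 2, with a log2 fold change of -0.27 (SE 0.264) and split pairs. Col4a5 and Col4a6, 2 further type IV chains that lie head to head on the X chromosome, stood at 69.2, 141, 87.2 and 156 CPM and at 33.5, 58.7, 45.5 and 58.2 CPM. The fold change was 0.21 (SE 0.440) for Col4a5 and 0.17 (SE 0.310) for Col4a6, on the log2 scale. For Col4a5 the replicates were 2.03 fold apart in Control and 1.79 fold apart in Trim33-deficient bodies, against 1.26 and 1.11 fold within the pairs. The type VIII chains form sheets in vessel walls and the cornea. Col8a1 stood at 11, 7.62, 8.80 and 13.3 CPM and Col8a2 at 17.2, 54.7, 17.3 and 49.0 CPM, and for Col8a2 the libraries numbered 2 were about 3 times as high as those numbered 1, with 3.17 fold in Control and 2.83 fold in Trim33-deficient bodies.

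Membrane-spanning and remaining collagens were low to moderate. Col13a1, a transmembrane collagen of adhesion sites, stood at 3.40, 12.1, 15.7 and 12 CPM in Control 1, Control 2, Trim33-deficient 1 and Trim33-deficient 2, a log2 fold change of 0.85 (SE 0.627) with Control 1 alone standing low. Col23a1, another transmembrane chain, had the same low Control 1, at 6.41, 27.7, 25.2 and 17 CPM. Col26a1 stood at 16.5, 31.7, 35.5 and 21.1 CPM, with opposite directions in the pairs. Col27a1, a chain of thin fibrils in cartilage, was lower in both Trim33-deficient libraries, at 15.1 and 18.7 CPM in Control and 11.9 and 13.8 CPM in Trim33-deficient bodies, with a log2 fold change of -0.40 (SE 0.229) and an adjusted p of 0.688 in edgeR. The transmembrane gene Col25a1, with 38 to 70 counts per library, was the second collagen whose Trim33-deficient values both lay below the Control ones. The other tested genes with low counts were Col15a1 (10 to 90 counts per library), Col17a1 (14 to 26), Col20a1 (11 to 30), Col24a1 (16 to 39) and Col9a3 (44 to 77). In GRCm38, exons of Tcfl5 overlap Col9a3 on the opposite strand, and reads of the pair cannot be told apart where strand was not used.

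The 8 genes below the filter had at most 11 counts in any library, which is too few to compare. Col4a4 had 2 to 11 counts and its neighbour Col4a3, which pairs with it in kidney basement membrane, 0 to 4. Col10a1, the chain of hypertrophic cartilage, had 0 to 3 counts, Col19a1 0 to 3 and Col28a1 0 or 1. Col6a4 had 3 to 8, Col6a5 1 to 3 and Col6a6 0 to 6.

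**Figure D2:**
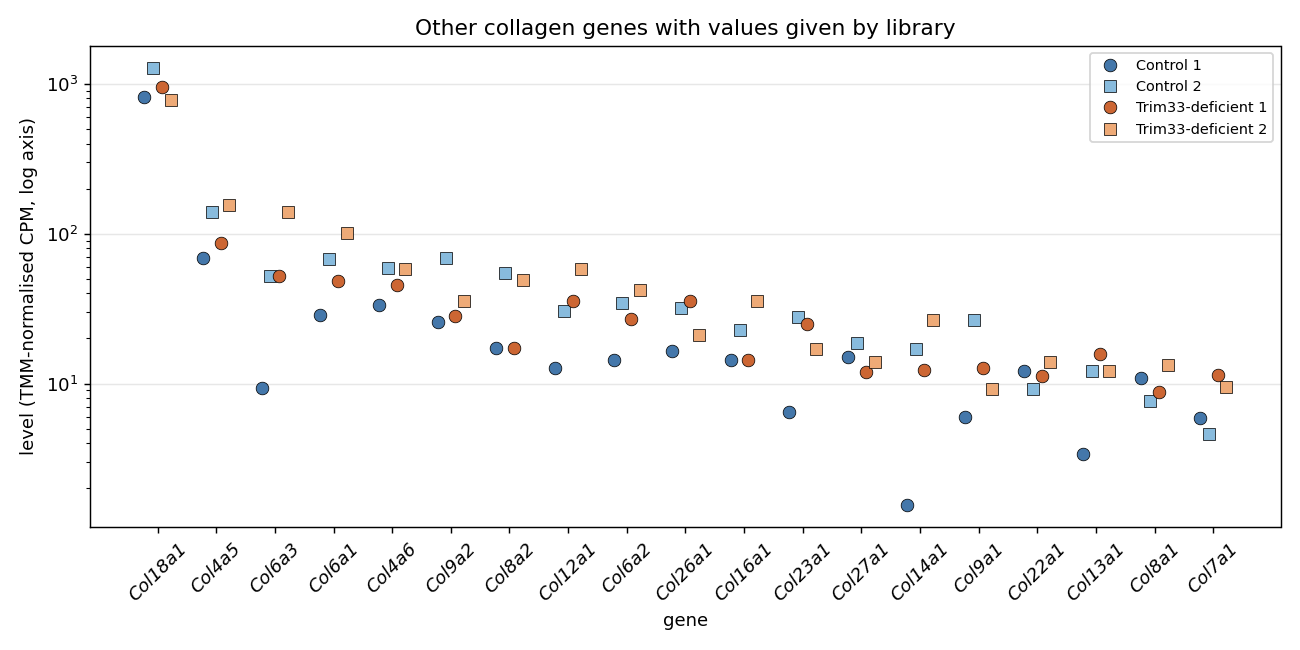
Level in each library of the other collagen genes that are given by library, in TMM-normalised CPM on a log axis, with 1 symbol per library. The Trim33-deficient symbols of Col7a1 and Col12a1 both lie above the Control ones, those of Col27a1 both lie below, and for the other genes shown the groups overlap.

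Counted over all 34 tested collagens, groups that did not overlap were less frequent than among all genes. Both Trim33-deficient libraries lay above both Control libraries for 4 genes (Col11a1, Col11a2, Col12a1 and Col7a1), which is 11.8% against 19.3% of all genes. They lay below for 2 (Col25a1 and Col27a1), which is 5.88% against 21.4%. The median log2 fold change was 0.41 over the 9 fibrillar and 0.25 over the 25 other genes tested, with 7 of 9 and 17 of 25 above 0. This gap depended on the classing, since with Col24a1 and Col27a1 counted as fibrillar the medians were 0.28 and 0.25. The fibrillar values ran from -0.45 for Col2a1 to 1.29 for Col3a1, and the others from -0.57 to 1.65. Without Control 1, which stood apart, the medians were 0.12 and -0.17, and 17 of the 34 lay above 0.

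**Figure D3:**
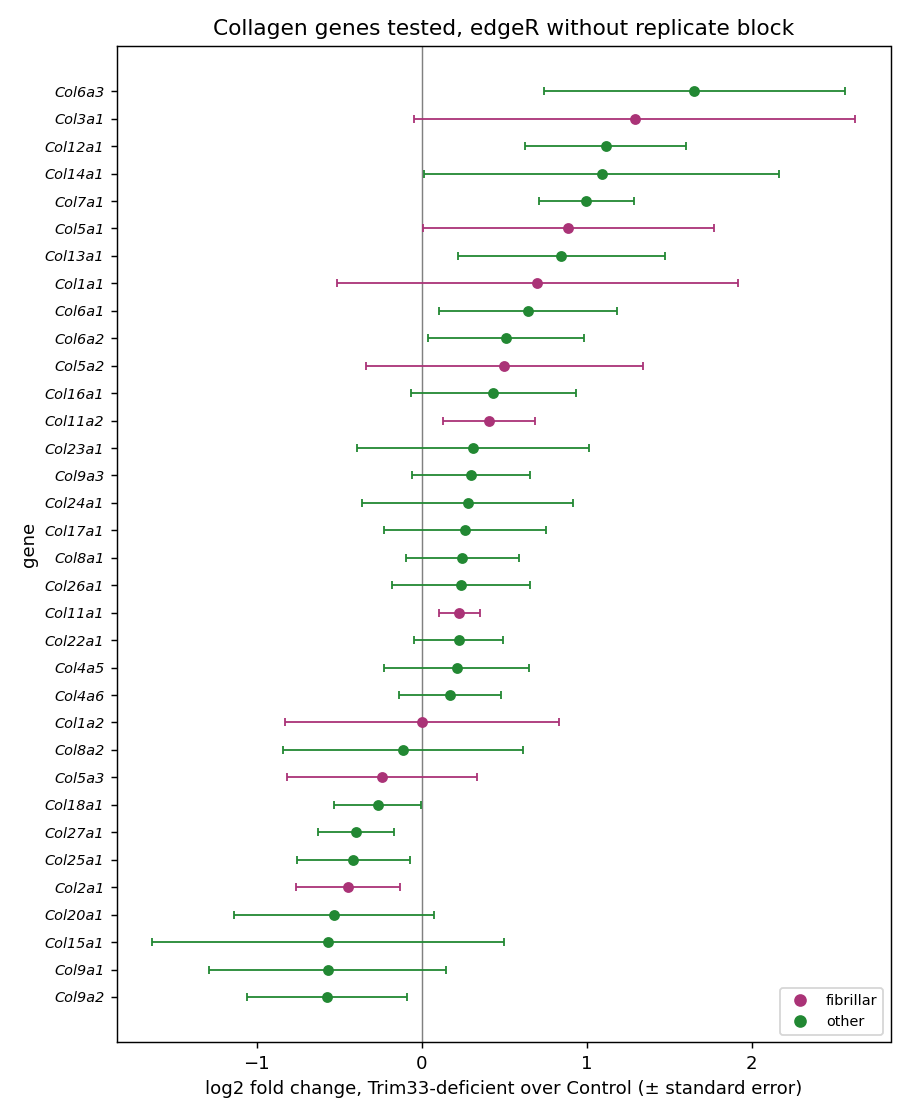
Log2 fold change of each of the 34 tested collagen genes, Trim33-deficient over Control, with its standard error as a bar, from edgeR without the replicate block. The widest bars belong to Col3a1, Col1a1, Col14a1 and Col15a1, and no gene passed the test.

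Within the pairs more collagens pointed upwards than among all genes. The Trim33-deficient library was the higher one in both pairs for 15 of 34 collagens, or 44.1%, against 30.3% of all genes, and the lower one in both for 3 (Col2a1, Col25a1 and Col27a1), or 8.82%, against 29.8%. For 16 the pairs split. Among the 9 fibrillar genes 6 were higher in both pairs (Col1a1, Col3a1, Col5a1, Col5a2, Col11a1 and Col11a2), and among the 25 others 9 were. The median difference was 0.62 in pair 1 and 0.48 in pair 2 for the fibrillar genes, and 0.44 and 0.15 for the others. Pair 1 contains Control 1, the library in which 23 of the collagens were lowest.

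Fits that take the pairs into account moved some of these genes towards a call. With the replicate number as a block, edgeR still called 0 of 34, against 0.014% of all genes, and its lowest adjusted p was 0.223, for Col6a3 with a log2 fold change of 1.92. At an unadjusted p under 0.05 that fit held 10 collagens higher, against 5.48% of all genes, and 1 lower (Col2a1), against 6.07%. The 10 were Col1a1, Col3a1, Col5a1, Col5a2, the type VI genes Col6a1, Col6a2 and Col6a3, and Col7a1, Col12a1 and Col14a1. In DESeq2 with the same block, a fit added after the data were seen, 4 collagens passed at an adjusted p under 0.05, all of them higher, against 0.512% of all genes higher and 0.75% lower. These were Col6a3 with a log2 fold change of 1.94 and an adjusted p of 8.9e-07, Col5a1 with 1.25 and 0.000782, Col1a1 with 1.12 and 0.00208, and Col12a1 with 1.20 and 0.0399. Both Trim33-deficient libraries exceeded the Control library of their pair for each of the 4. A call in a fit within so few pairs nearly requires this, so it adds no support to the calls. Col3a1 had a larger fold change, 2.04, in that fit but an adjusted p of 0.466.

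**Figure D4:**
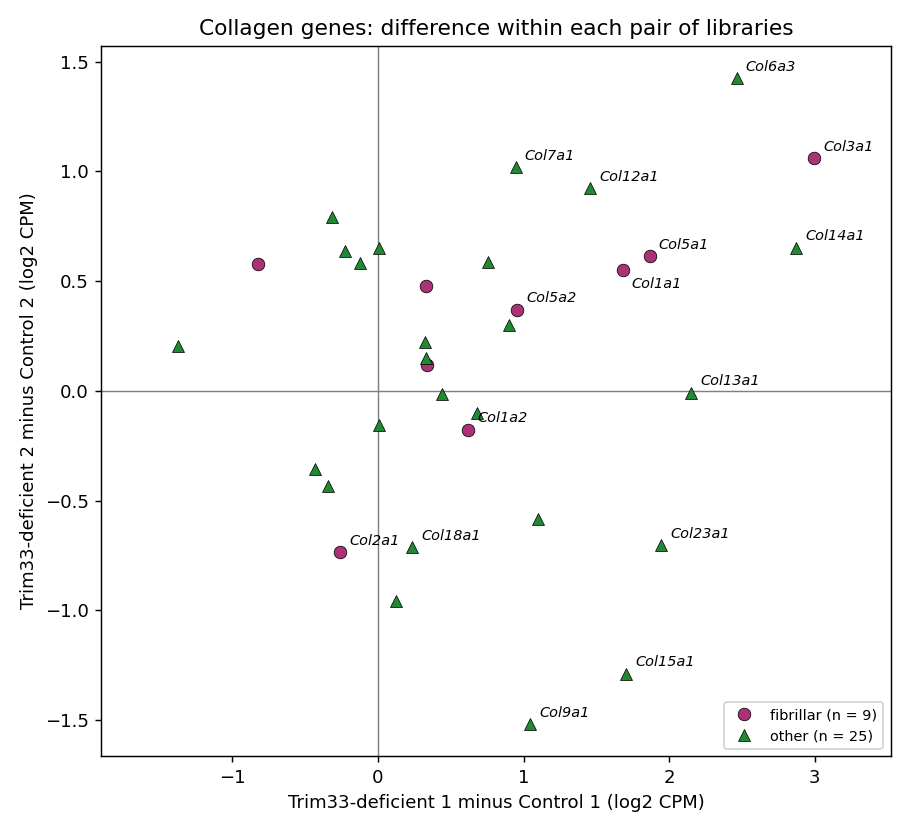
Difference in log2 CPM between the Trim33-deficient and the Control library of pair 1 (x axis) and of pair 2 (y axis) for the 34 tested collagen genes, with fibrillar and other genes in separate colours. At the upper right, above 0 on both axes, lie the 15 genes that were higher in both pairs, with Col3a1, Col6a3 and Col14a1 far to the right, genes that were lowest in Control 1.

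Per kilobase of the longest annotated transcript, the order of the collagens differed between libraries. The mean level over the 4 libraries was 275 CPM per kilobase for Col3a1, 234 for Col1a1, 171 for Col18a1, 95.1 for Col5a1, 75.1 for Col2a1, 69.4 for Col1a2 and 47.5 for Col5a2. Col18a1 led in Control 1, at 145 CPM per kilobase against 97.6 for Col2a1, 32.8 for Col1a1 and 19.4 for Col3a1, and in Trim33-deficient 1, at 171 against 155 for Col3a1. Col1a1 led in Control 2, at 324, and Col3a1 in Trim33-deficient 2, at 625. Most neighbours in the order of the means changed places between libraries, and the Col1a1 and Col3a1 values ran over more than 10 fold. Col1a2, however, stood above Col5a2 in all 4 libraries, at 24.8 against 14.6 in Control 1 and 101 against 82.9 in Trim33-deficient 2. The make-up of the fibrillar group varied widely between libraries. Col2a1 made up 39.7% of the summed fibrillar CPM in Control 1, 6.42% in Control 2, 14% in Trim33-deficient 1 and 2.54% in Trim33-deficient 2. Col3a1 made up 8.6%, 27.7%, 28.9% and 38.1%, and Col1a1 15.5%, 31.9%, 20.9% and 30.8%. Control 1 was thus the library in which the cartilage-type chain outweighed the type I and III chains.

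Chains that assemble into one molecule were compared as ratios within a library, corrected for transcript length, because such a ratio needs no scaling between libraries. The type I molecule usually holds 2 chains of Col1a1 and 1 of Col1a2, and the ratio of their levels was 1.32 in Control 1, 2.85 in Control 2, 2.76 in Trim33-deficient 1 and 4.72 in Trim33-deficient 2. It was higher on the Trim33-deficient side of both pairs, by 1.06 and 0.73 on the log2 scale, while the groups overlapped. The ratio of Col5a1 to Col5a2 was 1.37 and 1.77 in Control and 2.58 and 2.09 in the Trim33-deficient bodies, which is 1 of the 2 ratios whose groups did not overlap. The other was Col11a1 to Col11a2, at 6.55 and 8.35 in Control and 6.54 and 6.45 in the Trim33-deficient bodies, where the gap between the groups was smaller than the gap within Control. With 2 libraries in each group, an exact two-sided permutation test cannot give a p below 0.33, so these ratios are descriptions. Col6a1 to Col6a2 was steady, at 2.38, 2.36, 2.16 and 2.88, and so was the head-to-head pair Col4a5 to Col4a6, at 2.10, 2.44, 1.95 and 2.73. In contrast Col8a1 to Col8a2 ran from 0.118 in Control 2 to 0.540 in Control 1, with 0.431 and 0.230 in the Trim33-deficient libraries.

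The machinery that makes, processes and binds collagen was described from lists of known genes, none of whose members passed edgeR's test between the groups (0.014% of all genes did). Enzymes and chaperones of the endoplasmic reticulum had 20 of 21 genes tested, with 11 log2 fold changes above 0, a median of 0.17 and 0 genes at an unadjusted p under 0.05. P4ha1, a prolyl hydroxylase subunit for chains before they fold, stood at 323 and 431 CPM in the Control libraries and 193 and 292 CPM in the Trim33-deficient ones, a log2 fold change of -0.64 (SE 0.258). Its groups did not overlap, and the adjusted p was 0.650 in edgeR. Leprel1, a prolyl 3-hydroxylase, had -0.36 (SE 0.193) and Plod1, a lysyl hydroxylase, 0.35 (SE 0.204).

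Extracellular processing and cross-linking enzymes had 12 of 13 genes tested, 11 above 0 and a median log2 fold change of 0.58. Bmp1, the protease that removes the carboxy end of fibrillar procollagens, stood at 92.3 and 129 CPM in the Control libraries and 165 and 229 CPM in the Trim33-deficient ones, a log2 fold change of 0.83 (SE 0.243). Loxl4, a lysyl oxidase-like cross-linking enzyme, stood at 5.49 and 5.08 CPM in the Control libraries and 10.5 and 14.2 CPM in the Trim33-deficient ones, a log2 fold change of 1.22 (SE 0.284). For both genes the groups did not overlap, and the adjusted p in edgeR was 0.579 for Bmp1 and 0.530 for Loxl4. Over the 12 genes, both Trim33-deficient libraries lay above both Control libraries for 4, against 19.3% of all genes, and below for 1, against 21.4%. Adamts3, a protease of the amino end, went the other way at -0.61 (SE 0.267). DESeq2 with the replicate block called 3 of the 12 genes higher, against 0.512% of all genes. These were Bmp1 and, named after their values were seen, Pcolce, which enhances Bmp1, and Loxl1.

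Matrix proteins that bind fibrils had 10 of 15 genes tested, 8 above 0 and a median of 0.51. Bgn, the proteoglycan biglycan, stood at 78.6 and 76.6 CPM in the Control libraries and 112 and 112 CPM in the Trim33-deficient ones, a log2 fold change of 0.53 (SE 0.102) with an adjusted p of 0.485 in edgeR. Its replicates were close, in contrast to Fn1, the gene for fibronectin, at 790, 2512, 1629 and 3313 CPM, and to Dcn, the gene for decorin, at 4.10, 12.3, 6.64 and 23.4 CPM, which both followed the order of Col1a1 and Col3a1. DESeq2 with the replicate block called 1 of the 10 genes tested higher, against 0.512% of all genes. This was Postn, named after its value was seen, with an adjusted p of 0.0445. Receptors had 8 of 10 genes tested, 7 above 0 and a median of 0.31. Ddr2, a receptor tyrosine kinase for fibrillar collagen, stood at 8.73 and 11.3 CPM in the Control libraries and 19 and 29 CPM in the Trim33-deficient ones, a log2 fold change of 1.26 (SE 0.302) with an adjusted p of 0.530 in edgeR. Itgb1, the shared integrin beta chain, had 0.40 (SE 0.295) and Itga2 0.62 (SE 0.487).

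Degrading enzymes and their inhibitors had 6 of 10 genes tested, all 6 above 0, with a median of 0.65. Mmp9, a gelatinase, had a log2 fold change of 1.14 (SE 0.300), and the inhibitors Timp2 and Timp1 had 0.80 (SE 0.233) and 0.95 (SE 0.300). The groups did not overlap for these 3 genes, and their adjusted p in edgeR ran from 0.548 to 0.601. Over the 6 genes, both Trim33-deficient libraries lay above both Control libraries for 4, against 19.3% of all genes, and below for 0, against 21.4%. DESeq2 with the replicate block called Mmp9 and Timp2 higher, with adjusted p of 0.0196 and 0.0294, against 0.512% of all genes called higher. Transcription factors with known collagen targets had 12 of 13 genes tested, 10 above 0 and a median of 0.55. Sox9, the activator of Col2a1 in cartilage, stood at 30.1 and 23.9 CPM in the Control libraries and 46.6 and 39.5 CPM in the Trim33-deficient ones, a log2 fold change of 0.67 (SE 0.185), whereas Col2a1 itself had a negative fold change. Prrx1, a factor of limb and craniofacial mesenchyme, had 0.70 (SE 0.218) and Runx2, the bone factor, 0.96 (SE 0.327). The authors' deposited table of 84 genes held none of the 42 collagens and none of the genes on these lists.

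The summed level of mesenchyme markers moved with that of the fibrillar collagens over the libraries. The summed fibrillar level was 1256 CPM in Control 1, 6021 in Control 2, 2981 in Trim33-deficient 1 and 9141 in Trim33-deficient 2. The sum over 8 mesenchyme and fibroblast markers, led by Postn and Pdgfra, was 357, 1968, 893 and 2529 CPM in the same libraries, and none of the 8 was at 0. All 8 had a log2 fold change above 0 and 7 were higher in both pairs. Only 5 of the 8 (Postn, Pdgfra, Pdgfrb, Lum and Dcn) had the order of the fibrillar sum, whereas Twist1, Prrx1 and Thy1 were not highest in Trim33-deficient 2. The fibrillar sum was 3.52, 3.06, 3.34 and 3.62 times the mesenchyme sum, a range of 1.18 fold where the fibrillar sum itself ranged over 7.28 fold. Without Postn, the most abundant of the 8, the ratios were 7.00, 11.3, 6.89 and 12.8, a comparison chosen after the values were seen. The sum of 4 smooth muscle markers, led by Acta2 and Tagln, was 650, 1868, 1969 and 3072 CPM. It did not overlap between the groups, though Control 2 and Trim33-deficient 1 were close. Each of the 4 genes was higher in both Trim33-deficient libraries than in both Control ones, as were 19.3% of all genes. In edgeR 0 of the 4 passed, with a lowest adjusted p of 0.594, while DESeq2 with the replicate block called 2 higher, against 0.512% of all genes. The part of either cell type in the collagen values was not tested.

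Other sums ran in several orders, that of the fibrillar sum among them. Parietal endoderm markers, 5 genes led by Sparc and Lama1, had the order of the fibrillar sum. They stood at 1175 CPM in Control 1, 1801 in Control 2, 1333 in Trim33-deficient 1 and 2156 in Trim33-deficient 2, though only 2 of the 5 genes had that order singly. The summed level of the other collagen types was 1133, 1992, 1476 and 1615 CPM in Control 1, Control 2, Trim33-deficient 1 and Trim33-deficient 2, and without Col18a1 it was 320, 710, 518 and 833 CPM, in the order of the fibrillar sum. Neuroectoderm markers, 4 genes led by Nes and Sox2, ran the opposite way from the fibrillar sum, at 492, 281, 308 and 262 CPM, and neural crest markers likewise, at 96.8, 33, 48.3 and 29.5 CPM. Cardiomyocyte markers were highest in Trim33-deficient 1, at 687 CPM against 74.8 to 224 in the other libraries. Visceral endoderm markers, led by Afp, were at 693 and 649 CPM in the Control libraries and 44.3 and 38.1 CPM in the Trim33-deficient ones, without overlap between the groups. All 5 genes of that list were lower in both Trim33-deficient libraries than in both Control ones, against 21.4% of all genes. The part of these cell types in the collagen values was not tested.

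**Figure D5:**
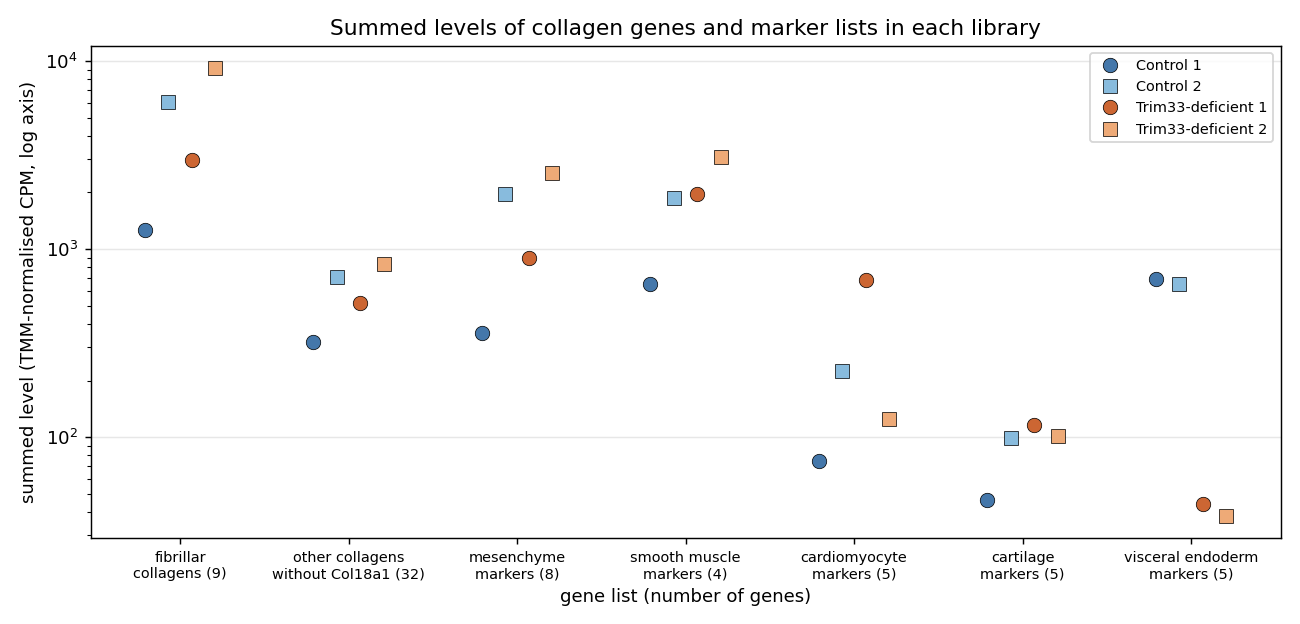
Summed level of the fibrillar and the other collagen genes and of marker lists in each library, in TMM-normalised CPM on a log axis, with 1 symbol per library. The fibrillar and mesenchyme sums are both lowest in Control 1 and highest in Trim33-deficient 2, while the visceral endoderm sum separates the groups.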

How the data were processed

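RNA of 4 libraries was sequenced, grouped by their titles into 2 Control and 2 Trim33-deficient ones. The deposited values are raw counts, 1 per gene symbol and library. Per the submitters' processing notes, STAR, HTSeq, DESeq and build mm9 were used, with no versions; for RNA selection and strand the sources used here give nothing. Rows that name no gene (no feature, 55.5% to 56% of reads; ambiguous, at most 0.2%) were left out. The authors' deposited table of called genes gives, per the file headers, fold and log2 fold changes, p-values and adjusted p-values, and was used only to look up members.

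Genes passing filterByExpr were scaled by TMM. The test was edgeR 4.0.16 (quasi-likelihood, two-sided, Benjamini-Hochberg over 14259 genes, threshold 0.05) in R 4.3.3. The SE is the absolute log2 fold change over the square root of F. A prior count of 2 entered the log2 CPM. Tried as well were DESeq2 1.42.0, limma 3.58.1 voom, other scalings and filters, the replicate block and each library left out. DESeq2 with the block was added after the data were seen. The tests of edgeR and DESeq2, with and without the block, and of limma voom were checked on simulated counts (14093 genes, 1 dispersion of 0.05 for every gene). These had the groups of this comparison but no pair effect. Without the block, edgeR recovered 100 of 100 genes at a log2 change of 2 and 100 of 100 at 3, with 10 false calls. Recovery by the other tests is not given here, so this check says nothing about the collagens called by DESeq2 with the block. Other scalings, other filters and left-out libraries were not simulated. Neither the wider spread of the collagens nor smaller changes were simulated. Lengths are of the longest GRCm38 transcript, and promoters are from RefSeq.

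Labels speak of independent pairs, so numbers were taken as pairs. Deviations of same-numbered libraries from the group means correlated at 0.236 (Pearson, across genes). Replicates differed far beyond counting noise (chi-square per degree of freedom 37.6 in Control, 25.6 in Trim33-deficient). Separate lines for the replicates are not stated, so the p-values reflect only the spread between these samples, which may be partly technical. Counting error is small beside the replicate spread for abundant collagens such as Col1a1 and Col3a1. It weighs more for genes not far above 5 CPM, such as Col7a1 (47 to 159 counts per library) and Col11a2 (51 to 103).

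Members and lists were chosen with earlier results of these data known. Values by library are given for fibrillar members and for others with a mean of at least 5 CPM, an unadjusted p under 0.05 or a partner in a chain ratio. From each pathway list the 3 genes with the smallest p are named, and from marker lists the summed level and the 2 most abundant genes, though not for every list.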

Additional observations from a re-analysis of the deposited data

How the results depend on the processing

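Without a replicate block, no collagen passed at an adjusted p under 0.05 in any fit run, left-out libraries included. With the replicate block, edgeR called 0 collagens and the median log2 fold changes were 0.41 (fibrillar) and 0.24 (other), while DESeq2 with the replicate block called 4. Leaving out each library in turn moved the fibrillar median from -0.087 (without Trim33-deficient 2) to 1.49 (without Control 2) and the other median from -0.17 (without Control 1) to 0.81 (without Control 2). Without Control 2, 14 collagens had an unadjusted p under 0.05, with a lowest adjusted p of 0.0761 in edgeR for Col14a1.

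Of the 28 genes given by library, 13 kept their direction in all 4 fits with a library left out and 15 did not. Their log2 fold changes ran from -0.76 to 3.15 for Col1a1, -0.86 to 1.49 for Col1a2, -0.042 to 4.33 for Col3a1, -0.47 to 1.93 for Col5a2, -0.69 to 0.45 for Col5a3, -0.27 to 0.81 for Col4a5, -0.18 to 0.63 for Col4a6, -1.28 to 0.85 for Col9a1 and -1.12 to 0.30 for Col9a2. They ran from -0.36 to 0.95 for Col16a1, -0.56 to 0.098 for Col18a1, -0.40 to 1.72 for Col23a1, -0.19 to 0.78 for Col26a1, -0.081 to 0.53 for Col8a1 and -1.05 to 0.94 for Col8a2. The cause was not tested. Among those that kept it, Col6a3 ran from 0.76 to 3.37, Col12a1 from 0.61 to 1.87, Col5a1 from 0.12 to 2.62 and Col7a1 from 0.84 to 1.19.

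In the 8 settings that keep all libraries, 219 of 224 values of these genes kept direction and side of the threshold. Col1a2 turned to -0.023 with upper-quartile scaling, and the 4 genes called by DESeq2 with the block were the rest. The differences in chain ratios ran, over the left-out libraries, from 0.34 to 1.45 for Col1a1 to Col1a2, 0.40 to 0.76 for Col5a1 to Col5a2, -0.14 to 0.28 for Col6a1 to Col6a2, -0.22 to 0.27 for Col4a5 to Col4a6, -0.78 to 1.42 for Col8a1 to Col8a2 and -0.36 to -0.012 for Col11a1 to Col11a2. Depth limits the genes under 5 CPM and those not far above it, such as Col7a1 and Col11a2, and leaves 8 collagens with too few counts. With 2 libraries in each group, the spread between replicates limits the others.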
